A study of Mus musculus with 26 samples.

Results

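The genes described here are 10 that identify cells of the myeloid lineage, the branch of blood formation that gives granulocytes, monocytes and macrophages. They are Itgam, Itgb2, Prtn3, Mpo, Elane, Ctsg, Csf3r, Csf1r, Spi1 and Fcgr1, and their RNA was followed across 26 microarrays of a murine pro-B cell line. Every probe set paired with exactly 1 of these symbols was taken, which gave 1 probe set for each gene, so 10 of the 19938 genes that could be read this way. A further 3 probe sets are shared between Itgam and Rpl35, a ribosomal protein gene, and were not used. All values are log2 intensities, and intensities of different probe sets are not set against each other.

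All arrays came from Ba/F3/gp130 cells, Ba/F3 cells that also carry gp130, the signalling chain shared by the receptors of the IL-6 family, and that are kept alive by IL-3 or by Hyper-IL-6, a fusion of IL-6 with its soluble receptor, here supplied at 10 ng/ml. One derivative, called synthetic here, carried mCherryVHHIL-10R2 together with GFPVHHIL-22Rα1, that is, the chains of the IL-22 receptor with a nanobody against mCherry or GFP. It was given a GFP-mCherry fusion protein (6 arrays), mCherry-Fc (6 arrays) or no protein (6 arrays). The other, called natural here, carried IL-10R2 together with IL-22Rα1 and was given IL-22 (4 arrays) or no protein (4 arrays). In every group the cells had been washed 4 times and starved without serum for 4 h. Purified protein was then given at 100 ng/ml for 2 h where the labels name no other time. Whether a line was 1 clone or a pool is not given in the sources used here, nor is it stated that arrays of a group came from separate cultures. The p-values therefore measure the spread between these arrays, which may be technical.

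Myeloid precursors fill their granules with enzymes before they mature: myeloperoxidase (Mpo), which makes hypochlorous acid, and the serine proteases proteinase 3 (Prtn3), neutrophil elastase (Elane) and cathepsin G (Ctsg). Itgam and Itgb2 encode the α and β chains of the integrin Mac-1 (CD11b/CD18), by which neutrophils and macrophages adhere and take up complement-coated particles, while Itgb2 also pairs with other α chains on most leukocytes. Csf3r and Csf1r encode the receptors for G-CSF and M-CSF, Fcgr1 the high-affinity Fc receptor for IgG, and Spi1 the transcription factor PU.1, which is needed for both myeloid and B cell development. In whole-culture RNA, more cells of a kind cannot be told apart from more RNA per cell.

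The receptor chains were read first as a check of the labels. Il22ra1 (probe set 10509063) lay between 6.14 and 6.48 on the 18 synthetic arrays and between 12.07 and 12.43 on the 8 natural arrays. Il10rb lay between 9.99 and 10.37 on synthetic arrays and between 11.71 and 12.21 on natural arrays. Both of these probe sets separated the lines with no overlap. A further probe set of Il22ra1 (10509071) did not, at 5.57 to 6.28 on synthetic and 5.67 to 6.09 on natural arrays. The pro-B label was read on B lineage markers. Cd79a (9.16 to 9.88) and Cd79b (8.62 to 9.20), which encode the signalling chains of the B cell receptor, and Pax5 (5.12 to 5.63), Ebf1 (4.48 to 4.98) and Rag1 (4.60 to 5.18), defining genes of the early B lineage, each kept to a narrow range over the 26 arrays. Some others of the 25 measured genes of this list varied more, such as Cd72 (6.67 to 8.33) and Vpreb1 (4.77 to 5.90). Whether a gene was expressed is not read from these levels, and a narrow range does not settle the label. Arrays of a group correlated at 0.981 to 0.994 over all probe sets and no 2 were identical.

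The promoters of 4 members are shown because these genes behave in contrasting ways below: Mpo and Itgam varied more between arrays of a group than almost any other gene, whereas Prtn3 and Elane, which lie next to each other on chromosome 10, varied little. Each sequence is the 250 bases before the gene's start in RefSeq (GRCm38.p6), read 5′ to 3′ on the gene's strand. Capitals mark matches on either strand to GAGGAA, the core bound by factors of the PU.1 type, or, once in Itgam, to TTNNGNAA, a form of the C/EBP motif. No 2 matches overlap.
Mpo, chr11:87793534-87793783, plus strand: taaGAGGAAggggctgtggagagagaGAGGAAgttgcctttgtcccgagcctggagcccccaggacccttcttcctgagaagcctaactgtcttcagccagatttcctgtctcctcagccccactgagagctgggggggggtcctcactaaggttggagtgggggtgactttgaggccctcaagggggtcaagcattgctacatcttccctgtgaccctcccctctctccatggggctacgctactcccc
Itgam, chr7:128062390-128062639, plus strand: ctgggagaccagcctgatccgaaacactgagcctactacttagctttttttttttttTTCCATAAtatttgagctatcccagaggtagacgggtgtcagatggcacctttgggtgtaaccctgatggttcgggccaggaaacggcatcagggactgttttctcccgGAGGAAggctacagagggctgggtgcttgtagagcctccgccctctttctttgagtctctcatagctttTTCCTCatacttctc
Prtn3, chr10:79879417-79879666, plus strand: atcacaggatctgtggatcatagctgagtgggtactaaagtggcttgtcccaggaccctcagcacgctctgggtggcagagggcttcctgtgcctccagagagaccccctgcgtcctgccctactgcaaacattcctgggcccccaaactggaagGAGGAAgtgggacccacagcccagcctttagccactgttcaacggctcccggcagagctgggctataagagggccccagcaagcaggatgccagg
Elane, chr10:79886062-79886311, plus strand: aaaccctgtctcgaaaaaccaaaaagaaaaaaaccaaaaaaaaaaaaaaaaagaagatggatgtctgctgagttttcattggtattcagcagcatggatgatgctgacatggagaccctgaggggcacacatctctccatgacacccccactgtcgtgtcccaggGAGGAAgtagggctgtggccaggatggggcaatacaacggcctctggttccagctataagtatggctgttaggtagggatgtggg
Of the 10 members, 7 matched an entry of the promoter table. GAGGAA lay in all 7 (Csf3r, Ctsg, Elane, Fcgr1, Itgam, Mpo and Prtn3), against 23.3% of 32851 mouse promoters of the same length. TTNNGNAA lay in 1 of the 7 (Itgam), against 36.8% of promoters, and TTCNNNGAA, a STAT type motif, in 2 of the 7 (Ctsg and Fcgr1), against 7.02%. These are matches of letters in these windows and describe no binding.

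Several members differed widely between arrays of the same group, and in natural cells these differences followed the replicate numbers in the labels. On natural arrays numbered 4 and 5 (1 with IL-22, 2 untreated), myeloperoxidase and both chains of Mac-1 were 4.02 to 13.3 times as high as on natural arrays numbered 1 to 3 (3 with IL-22, 2 untreated). The sets did not overlap, and arrays with and without IL-22 lay together within each. This split of the numbers is known from these data and the labels do not say what the numbers stand for, so the values are given as a description with no test. Differences between the ranges were averaged within treatment groups.

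Mpo stood at 10.87 on the IL-22 array numbered 5 and at 10.62 and 11.00 on the untreated arrays numbered 4 and 5. On low-numbered natural arrays it stood at 6.97, 7.05 and 6.97 with IL-22 and at 7.16 and 7.19 untreated. The 3 high-numbered arrays thus lay far above the other 5, by 3.73 on the log2 scale (13.3-fold), and of the 21789 probe sets tested only that of Epx, the eosinophil peroxidase gene, differed by more. On synthetic arrays Mpo lay between 7.15 and 7.43 in all 3 groups.

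Itgam stood at 12.05 on the high-numbered IL-22 array and at 11.73 and 11.99 on the high-numbered untreated arrays. On low-numbered arrays it stood at 8.73, 8.98 and 8.87 with IL-22 and at 8.85 and 8.77 untreated. The difference was 3.11 (8.61-fold), and 5 probe sets had a larger one. Itgb2, its partner chain, stood at 10.22 with IL-22 and at 9.89 and 10.28 untreated on high-numbered arrays, against 7.94, 8.02 and 8.02 with IL-22 and 8.24 and 8.25 untreated on low-numbered ones. Its difference was 2.01 (4.02-fold), with 22 probe sets above it, so both chains of Mac-1 were among the most variable RNAs of the natural line.

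The remaining members showed small differences or none. Ctsg lay between 5.43 and 5.91 on high-numbered natural arrays and between 4.93 and 5.26 on low-numbered ones (1.47-fold), and Csf1r between 6.30 and 6.37 against 5.90 to 6.15 (1.21-fold). Both sets of ranges are free of overlap. Prtn3, Elane, Csf3r, Spi1 and Fcgr1 overlapped, and Prtn3 and Spi1 differed by -0.03 and -0.0031. The granule enzymes thus did not move together: Mpo was far higher on high-numbered arrays and Ctsg slightly so, while Prtn3 and Elane were not. In all, 5 of 10 members were free of overlap, against 16.2% of all probe sets. All 5 were higher, against 7.2% of probe sets, and 0 were lower, against 9.03%.

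**Figure D1:**
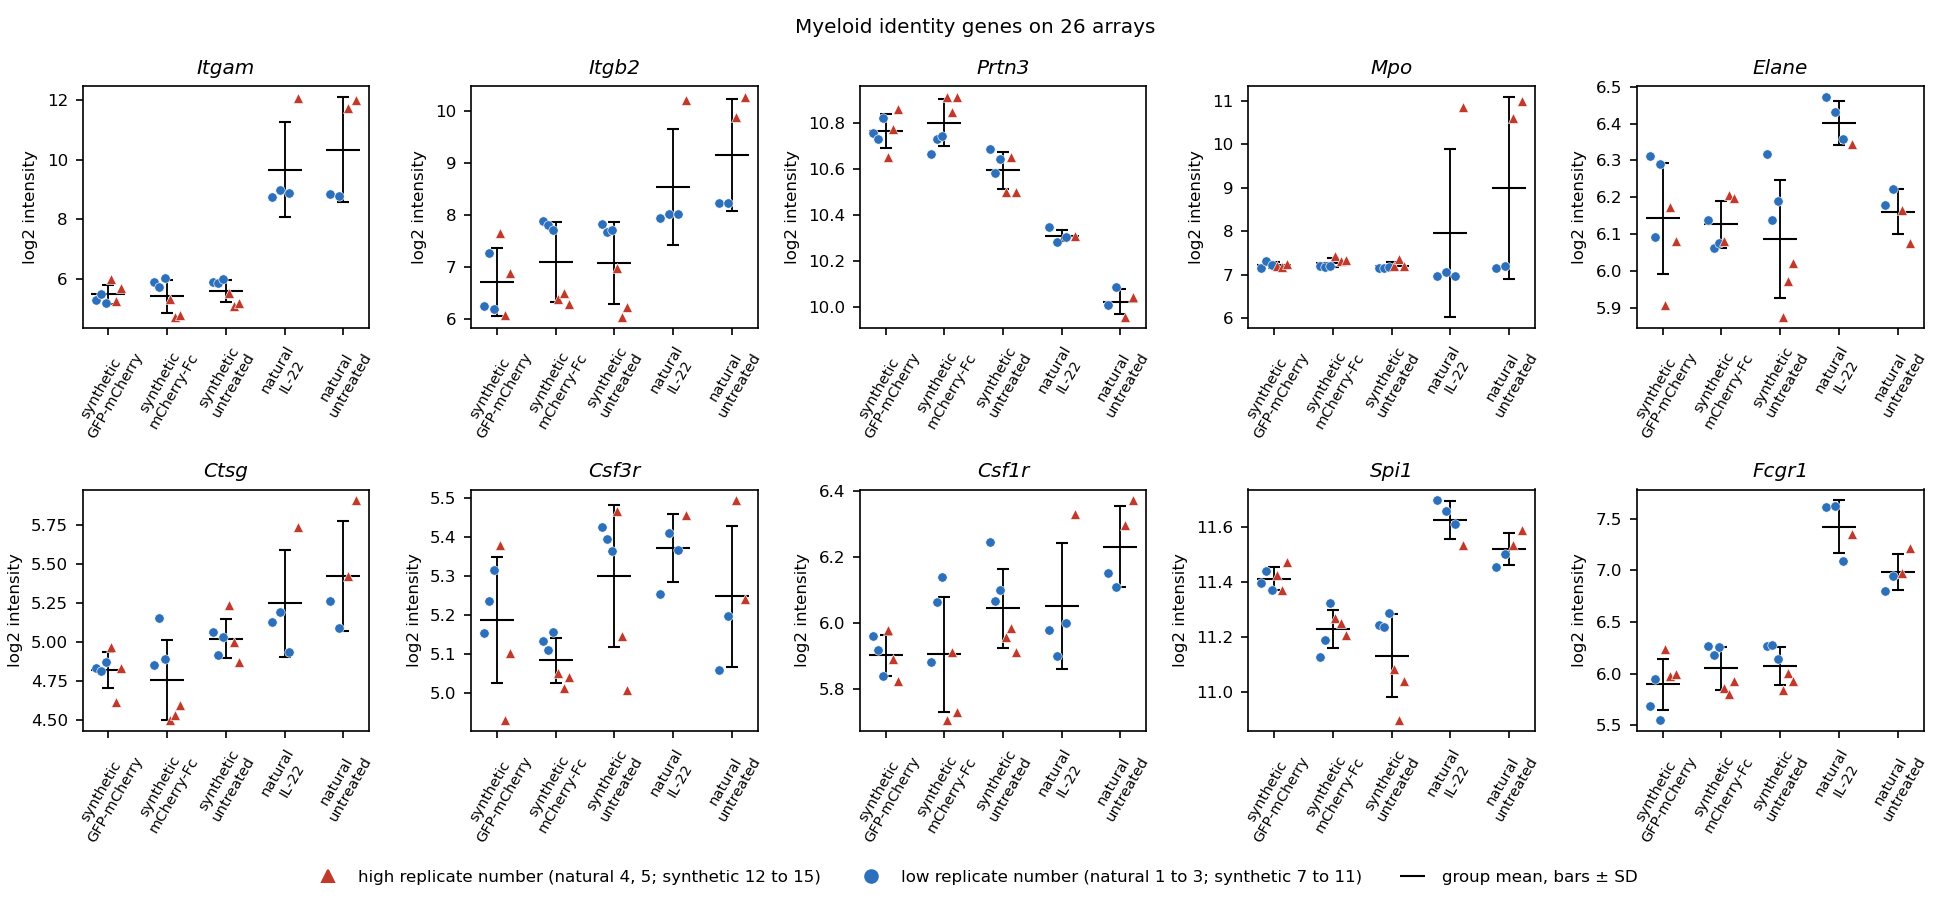
Log2 intensity (y axis, own scale per panel) of the 10 myeloid genes on each of 26 arrays in 5 groups (x axis), with the group mean and SD. Red triangles are arrays with high replicate numbers and blue circles those with low ones. In natural cells the 3 triangles of Mpo, Itgam and Itgb2 stand well above the 5 circles, whether or not IL-22 was given. Prtn3 is tight within groups, as is Spi1 except in untreated synthetic cells (10.90 to 11.29).

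Genes of 3 further myeloid lists were set beside the members. Of 27 measured granule and secreted genes, 15 were higher on high-numbered natural arrays with no overlap and 0 were lower. S100a9, a subunit of calprotectin, lay between 9.01 and 9.77 on high-numbered arrays and between 6.06 and 6.55 on low-numbered ones (9.90-fold). Lyz2, the macrophage lysozyme gene, lay between 7.53 and 8.21 against 5.11 to 5.24 (6.53-fold), and S100a8, the partner of S100a9, between 6.64 and 7.36 against 4.56 to 5.01 (4.82-fold).

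Of 34 surface and signalling genes, 11 were higher with no overlap and 1, Siglece, was lower. Fcgr2b, the inhibitory Fc receptor gene, was 6.87 times as high, Adgre1, which encodes the macrophage marker F4/80, 4.33 times, and the lysosomal marker gene Cd68 3.20 times. Of 17 myeloid transcription factor genes, 0 were free of overlap in either direction, and their median difference was -0.01. The medians of the granule and surface lists were 0.25 and 0.19, that of the members 0.23 and that of all probe sets -0.02. Overlap was read over IL-22 and untreated arrays together, and 11 of the 17 factor genes passed between those treatments. Id2, an inhibitor of helix-loop-helix factors, averaged 3.23 times as high on high-numbered arrays, yet its ranges of 7.95 to 10.06 and 6.39 to 8.43 overlapped.

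Markers of other blood cells were read on the same arrays. Of 25 B lineage genes 2 were higher with no overlap and 0 were lower. Of 17 T and NK cell genes 1 was higher and 2 were lower, of 15 mast cell and basophil genes 4 were higher, and of 6 eosinophil genes 2 were higher. Of 13 erythroid and megakaryocyte genes 2 were higher and 2 lower, and of 12 dendritic cell genes 2 were higher. The receptor chains also differed. Il22ra1 (probe set 10509063) lay between 12.07 and 12.22 on high-numbered natural arrays and between 12.27 and 12.43 on low-numbered ones. Il10rb lay between 11.71 and 11.79 against 12.01 to 12.21. The part of other cells, or of differences between cultures, in the members' values was not tested.

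Taken as a whole, the synthetic line showed no such split. Over its 9 high-numbered arrays (12 to 15) and 9 low-numbered ones (7 to 11), 0 of 10 members were free of overlap, against 0.138% of all probe sets, and the same held for all 9 gene lists. Within single groups the numbers separated some members. In both mCherry-Fc and untreated cells Itgam, Itgb2 and Fcgr1 were lower on high-numbered arrays with no overlap, and Mpo slightly higher. In mCherry-Fc cells only, Ctsg and Csf3r were also lower with no overlap, and Prtn3 higher (10.84 to 10.91 against 10.66 to 10.74). In untreated cells only, Elane, Csf1r and Spi1 were also lower with no overlap, Spi1 at 10.90 to 11.08 against 11.24 to 11.29. The share of all probe sets separated in this way within a group was not computed. With mCherry-Fc, Itgb2 lay between 6.29 and 6.51 on high-numbered arrays, against 7.72 to 7.89 on low-numbered ones. Untreated, it lay between 6.05 and 6.99, against 7.68 to 7.84. In GFP-mCherry cells Fcgr1 was free of overlap in the other direction. These sets of 3 arrays carry no test. In mCherry-Fc and untreated cells Itgb2 averaged 6.40 and 6.43 on high-numbered arrays, against 7.81 and 7.75 on low-numbered ones, the opposite direction to natural cells. In GFP-mCherry cells it averaged 6.87 on high-numbered and 6.57 on low-numbered arrays. Itgam behaved likewise, at 4.95 and 5.27 in high-numbered mCherry-Fc and untreated cells, against 5.88 and 5.91 in low-numbered ones, and at 5.64 in high-numbered and 5.31 in low-numbered GFP-mCherry cells. Over all synthetic arrays only 2 probe sets differed more between the ranges than that of Itgb2, which was 0.81 lower on high-numbered arrays.

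**Figure D2:**
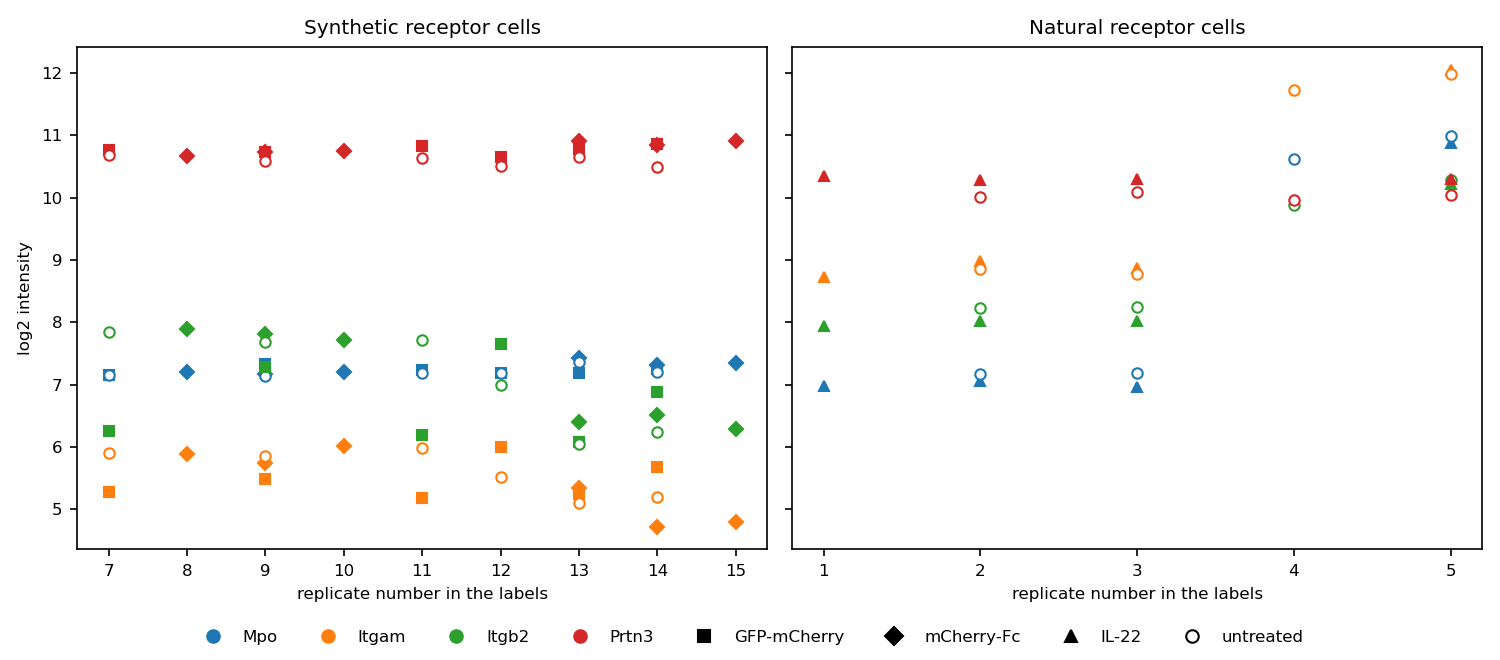
Log2 intensity (y axis) of Mpo, Itgam, Itgb2 and Prtn3 (colours) against the replicate number in the labels (x axis), with the synthetic line on the left and the natural line on the right. Symbols give the protein added. In natural cells the arrays numbered 4 and 5 lie above those numbered 1 to 3 for Mpo, Itgam and Itgb2. In synthetic cells Mpo lies between 7.15 and 7.43. Over all arrays of either line, Prtn3 overlaps between the number ranges.

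The spread between arrays of 1 group differed accordingly from gene to gene. The SD within groups, pooled over the 5 groups, was 1.08 for Mpo, 0.970 for Itgam and 0.857 for Itgb2, larger than for 99.99%, 99.97% and 99.95% of all probe sets, whose median was 0.134. Ctsg (0.240) and Fcgr1 (0.215) were also above that median, Csf3r (0.144) and Csf1r (0.138) were close to it, and Elane (0.116), Spi1 (0.0903) and Prtn3 (0.0768) were below it. The pooled value hides a contrast for Mpo, whose SD was 1.94 and 2.10 in IL-22 and untreated natural cells but 0.06, 0.10 and 0.08 in GFP-mCherry, mCherry-Fc and untreated synthetic cells. All 10 members had a mean over all arrays of at least 5, and 8 one of at least 6, the exceptions being Ctsg and Csf3r.

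Genes that deviated from their group means most like Mpo over the 26 arrays were Epx (r = 0.994), Fcgr2b (0.993), Lgals9, which encodes galectin-9 (0.986), S100a9 (0.986) and Man2a2, a mannosidase of glycan processing (0.985). With deviations taken within each number range as well, r was between 0.41 and 0.70. Epx lay between 10.37 and 10.90 on high-numbered natural arrays and between 5.94 and 6.57 on low-numbered ones. Genes most like Itgam were P2rx7, an ATP-gated channel (0.990), Hk3, a hexokinase (0.983), Ccl9, a chemokine (0.980), Selenbp2 (0.979) and Cyp11a1, a steroid side-chain cleaving enzyme (0.977), at 0.66 to 0.85 within ranges. These correlations share arrays and number ranges and are given as a description.

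The comparison of the untreated lines asks what the lines differ in before any ligand. Untreated synthetic cells had far less Itgam RNA than untreated natural cells, less Itgb2, Fcgr1 and Spi1 RNA, and more Prtn3 RNA. These 5 of 10 members passed the threshold (adjusted p under 0.05), 4 lower and 1 higher, against 14.8% of all probe sets, 6.56% lower and 8.28% higher. The same 5 members did not overlap between the groups, against 9.89% of all probe sets.

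Itgam lay between 5.10 and 5.99 (median 5.68) in untreated synthetic cells, against 8.85, 8.77, 11.73 and 11.99 in untreated natural cells. The difference was -4.75 (SE 0.56, 26.8-fold lower, adjusted p = 5.87e-07). It was -6.59 among high-numbered arrays and -2.90 among low-numbered ones, so that even the lower natural arrays had more Itgam RNA than any synthetic one. Since the split of the numbers was seen in these data, no p is given within ranges for the genes it separates. Counts of calls within ranges, given below, are a description for the same reason.

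Itgb2 lay between 6.05 and 7.84 (median 7.33) in untreated synthetic cells, against 8.24, 8.25, 9.89 and 10.28 in untreated natural cells, a difference of -2.08 (SE 0.49, 4.22-fold lower, adjusted p = 0.00387). Among high-numbered arrays it was -3.66 and among low-numbered ones -0.50. Mpo lay between 7.15 and 7.36 (median 7.19) in untreated synthetic cells, against 7.16, 7.19, 10.62 and 11.00 in untreated natural cells. Its difference of -1.79 (SE 0.62, adjusted p = 0.0511) did not pass. It was -3.56 among high-numbered arrays and -0.02 among low-numbered ones. The Mpo difference passed at nearly the same size with repeated quantile normalization (adjusted p = 0.0487), with 1 probe set per gene (0.0484), with the mean of a gene's probe sets (0.0491) and with probe sets of a mean of at least 5 (0.0426) or 6 (0.0363). Without untreated natural array 2 or 3 the Mpo difference passed, at -2.40 (adjusted p = 0.00869) and -2.39 (adjusted p = 0.0101).

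Prtn3 ran the other way. It lay between 10.50 and 10.69 (median 10.61) in untreated synthetic cells, against 10.00, 10.09, 9.95 and 10.04 in untreated natural cells, with a difference of 0.57 (SE 0.058, 1.49-fold, adjusted p = 4.43e-08) and nearly the same size within high and low numbers (0.55 and 0.59). Elane, its neighbour on the chromosome, averaged 6.09 ± 0.16 (SD, n = 6) in untreated synthetic cells and 6.16 ± 0.06 (SD, n = 4) in untreated natural cells, a difference of -0.08 (95% interval -0.23 to 0.08) that did not pass.

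Fcgr1 lay between 5.84 and 6.27 (median 6.07) in untreated synthetic cells, against 6.80, 6.94, 6.97 and 7.22 in untreated natural cells, and was 1.88-fold lower (log2 difference -0.91, SE 0.13, adjusted p = 1.02e-05). Spi1 lay between 10.90 and 11.29 (median 11.16), against 11.46, 11.50, 11.53 and 11.59, a difference of -0.39 (SE 0.064, adjusted p = 7.22e-05). The differences were -1.17 and -0.56 within high numbers and -0.64 and -0.22 within low numbers. The Ctsg difference of -0.40 (adjusted p = 0.0565), the Csf1r difference of -0.19 (adjusted p = 0.172) and the Csf3r difference of 0.05 (adjusted p = 0.808) did not pass. Csf3r differed by -0.16 among high-numbered arrays and by 0.27 among low-numbered ones. Ctsg passed with probe sets of a mean of at least 5 (-0.40, adjusted p = 0.0458), without untreated natural array 2 (-0.45, adjusted p = 0.0483) or 3 (-0.51, adjusted p = 0.0206), and without untreated synthetic array 12 (-0.44, adjusted p = 0.0461).

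**Figure D3:**
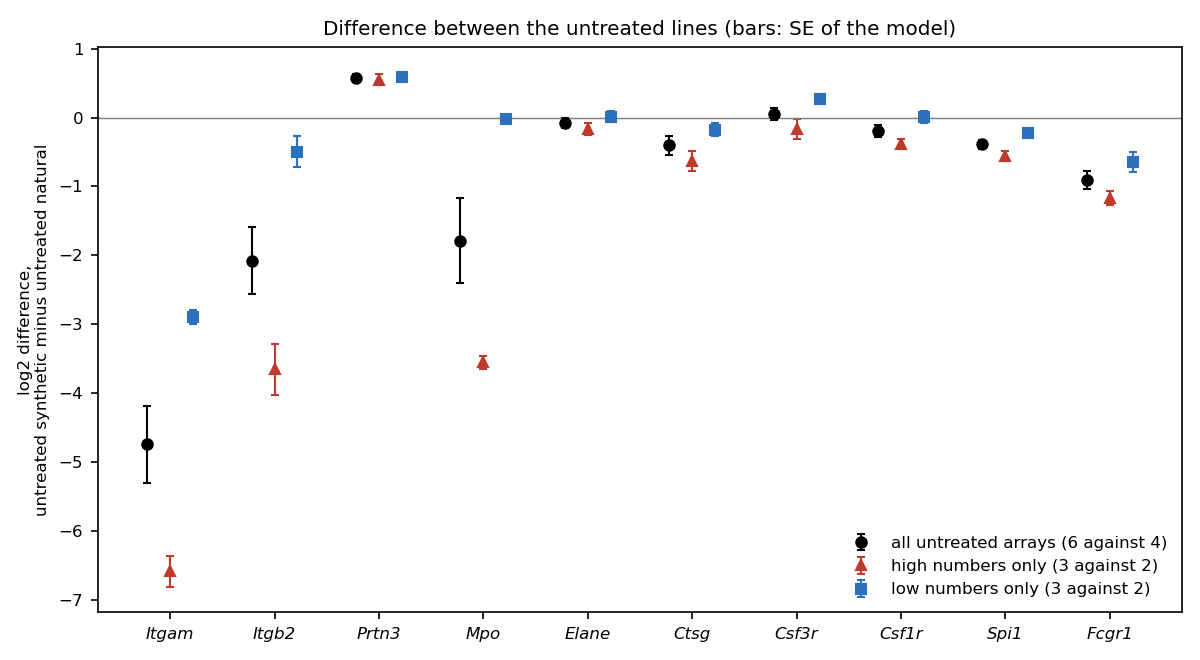
Log2 difference, untreated synthetic minus untreated natural (y axis), for each of the 10 members (x axis), over all untreated arrays, over high-numbered arrays and over low-numbered arrays, with the standard error of the model. Mpo differs by -3.56 among high-numbered arrays and by -0.02 among low-numbered ones, Itgam is lower in both, and Prtn3 is higher by about the same amount in both.

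Genes of the other myeloid lists were read in the same comparison. Of 27 granule and secreted genes 12 fell and 1, Plac8, rose; the smallest p-values were those of Hp, which encodes haptoglobin (-1.61, adjusted p = 4.94e-15), Ncf1, a subunit of the phagocyte NADPH oxidase (-0.82, adjusted p = 1e-05), and Lcn2, which encodes lipocalin-2 (-3.85, adjusted p = 2.5e-05). Of 34 surface and signalling genes 12 fell, among them Cxcr2, a neutrophil chemokine receptor gene (-1.65, adjusted p = 8.48e-09), and 2 rose, Csf2ra, which encodes the α chain of the GM-CSF receptor (1.07, adjusted p = 3.78e-09), and Itgal. Of 17 transcription factor genes 6 fell, led by Cebpd (-0.62, adjusted p = 1.01e-05), and 0 rose. Many of these differences were small among low-numbered arrays. There 4 of the 12 granule genes, 4 of the 12 surface genes and 2 of the 6 factor genes passed, as a description. The median difference of the 12 granule genes was -1.13 among high-numbered arrays and -0.26 among low-numbered ones, that of the 12 surface genes -1.27 and -0.16, and that of the 6 factor genes -0.58 and -0.18. Hp was lower by about as much in both, at -1.45 among high-numbered and -1.77 among low-numbered arrays, whereas Lyz2 differed by -2.94 and 0.02. The median difference of the members was -0.40, those of the granule, surface and transcription factor lists were -0.23, -0.06 and -0.20, and that of all probe sets 0.01. Elsewhere 1 B lineage, 1 mast cell and 1 dendritic cell gene fell, 1 T and NK cell gene rose, 4 erythroid and megakaryocyte genes rose and 2 fell, and 0 eosinophil genes passed.

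IL-22 against no protein in natural cells asks what the natural receptor pair does to these genes. Prtn3 and Fcgr1 rose by small amounts, the other 8 members did not pass, and 0 fell. A count of 2 of 10 stands against 11.3% of all probe sets called, 5.53% higher and 5.81% lower. Prtn3 stood at 10.34, 10.28, 10.30 and 10.31 with IL-22, against 10.00, 10.09, 9.95 and 10.04 untreated. The groups did not overlap, and the difference was 0.29 (SE 0.063, 1.22-fold, adjusted p = 0.00184). Among low-numbered arrays it was 0.26 and among the high-numbered ones, of which 1 had IL-22, 0.31.

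Fcgr1 stood at 7.62, 7.63, 7.09 and 7.35 with IL-22, against 6.80, 6.94, 6.97 and 7.22 untreated. The groups overlapped, and the difference was 0.44 (SE 0.14, 1.35-fold, adjusted p = 0.0407). This call was lost with the replicate number as a block (0.37, adjusted p = 0.221), which leaves out natural arrays 1 and 4. It was also lost without IL-22 array 1 or 2 (both 0.37, adjusted p = 0.152 and 0.153) and without untreated array 2, 3 or 4 (0.38, 0.42 and 0.43, adjusted p = 0.134, 0.0862 and 0.0794).

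Elane stood at 6.47, 6.43, 6.36 and 6.34 with IL-22, against 6.18, 6.22, 6.17 and 6.08 untreated. It did not overlap, which made it, with Prtn3, 1 of 2 such members, against 11.3% of probe sets, but its difference of 0.24 (SE 0.083, adjusted p = 0.064) did not pass. It passed with repeated quantile normalization (0.26, adjusted p = 0.0193), with median centring (0.26, adjusted p = 0.0305), with probe sets of a mean of at least 5 or 6 (adjusted p = 0.0477 and 0.0359) and with the number as a random block (0.23, adjusted p = 0.0231), but not with a fixed block. The Spi1 difference of 0.11 (adjusted p = 0.46) and the Csf3r difference of 0.12 (adjusted p = 0.577) did not pass either.

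For Mpo, Itgam and Itgb2 the number ranges weigh on the means, since 1 of 4 IL-22 arrays and 2 of 4 untreated arrays are high-numbered. Mpo averaged 7.97 ± 1.94 with IL-22 and 8.99 ± 2.10 untreated (SD, n = 4 each), a difference of -1.03 (95% interval -2.42 to 0.37, adjusted p = 0.461). Without IL-22 array 5 it became -2.00 and passed (adjusted p = 0.0116). Itgam averaged 9.66 ± 1.60 with IL-22 and 10.34 ± 1.76 untreated, a difference of -0.68 (adjusted p = 0.64), and among low-numbered arrays the difference was 0.05. Itgb2 averaged 8.55 ± 1.11 with IL-22 and 9.16 ± 1.07 untreated, a difference of -0.61 (adjusted p = 0.63), and -0.25 among low-numbered arrays. Ctsg (-0.17, adjusted p = 0.638) and Csf1r (-0.18, adjusted p = 0.303) did not pass, and Csf1r did without IL-22 array 5 (-0.27, adjusted p = 0.0442).

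Genes of the other myeloid lists were also read after IL-22. Of 17 transcription factor genes 5 rose, with Cebpd (1.36, adjusted p = 1.61e-11) and Zeb2 (1.32, adjusted p = 9.35e-11) ahead, and 6 fell, with Nfe2 ahead (-1.11, adjusted p = 1.73e-08). The C/EBP genes were divided, since Cebpb rose with Cebpd while Cebpa and Cebpe fell. Of 34 surface and signalling genes 5 rose, among them Cxcr2 (2.57, adjusted p = 2.66e-12), Syk, a kinase downstream of Fc receptors (0.58, adjusted p = 5.17e-08), and Ccr2, a monocyte chemokine receptor gene (0.82, adjusted p = 5.78e-05), and 0 fell. Of 27 granule and secreted genes 2 rose, Ctsc, the protease that activates the granule serine proteases (0.61, adjusted p = 2.9e-06), and Serpinb1a, an inhibitor of them (1.61, adjusted p = 8.14e-06), and 0 fell. The median difference of the members was -0.03 and that of all probe sets -0.02. Of the other lists, 2 B lineage, 1 mast cell and 4 erythroid and megakaryocyte genes fell, 1 T and NK cell gene rose, and 0 eosinophil or dendritic cell genes passed.

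**Figure D4:**
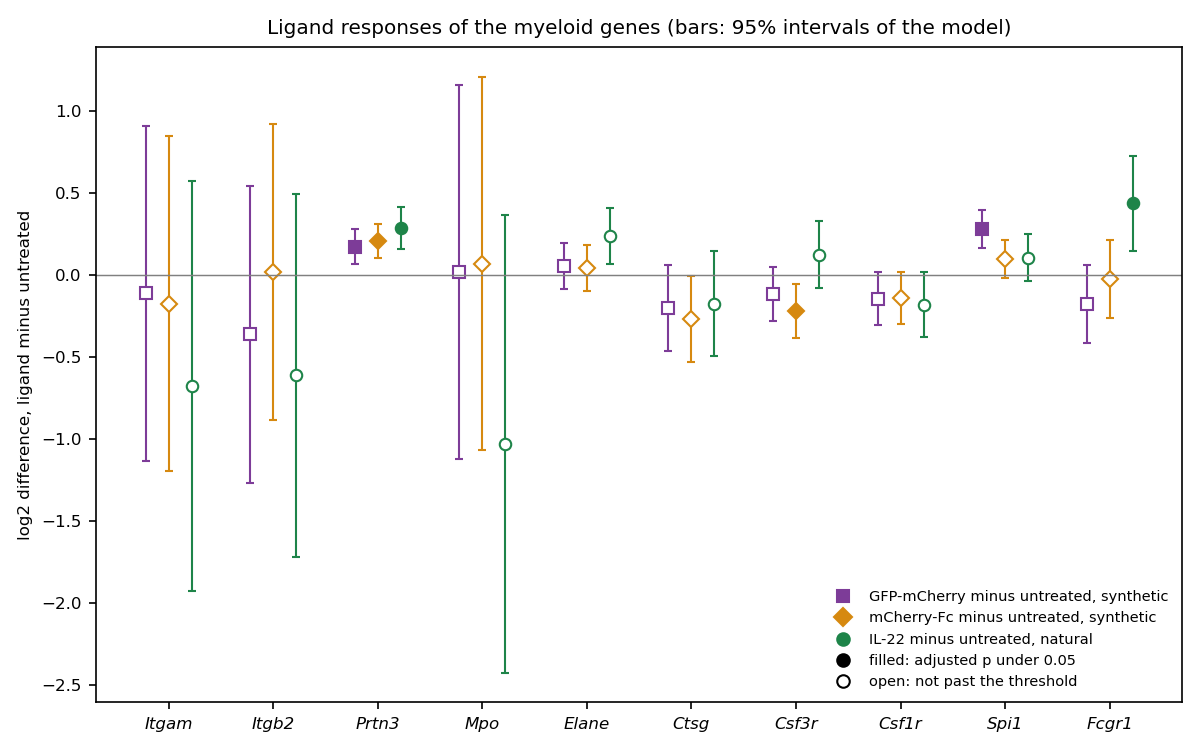
Log2 difference, ligand minus untreated (y axis), of the 10 members (x axis) for GFP-mCherry and mCherry-Fc in synthetic cells and IL-22 in natural cells, with 95% intervals of the model. Filled symbols passed the threshold: Prtn3 is filled for all 3 ligands, Spi1 for GFP-mCherry, Csf3r for mCherry-Fc and Fcgr1 for IL-22, while the intervals of Itgam, Itgb2 and Mpo are wide and include 0.

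GFP-mCherry, which can bind both synthetic chains, was set against no protein in synthetic cells. Spi1 and Prtn3 rose and 0 members fell, 2 of 10 against 26.4% of all probe sets, 14.7% higher and 11.7% lower. Spi1 lay between 11.37 and 11.47 (median 11.41) with GFP-mCherry, against 10.90 to 11.29 (median 11.16) untreated. It was the 1 member without overlap, against 14.2% of probe sets, with a difference of 0.28 (SE 0.057, 1.22-fold, adjusted p = 0.000556). The rise was 0.42 among high-numbered arrays and 0.14 among low-numbered ones, where, as a description, it did not pass. The ranges separated the untreated arrays of Spi1 with no overlap, so no p is given within them.

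Prtn3 lay between 10.65 and 10.86 (median 10.77) with GFP-mCherry, against 10.50 to 10.69 (median 10.61) untreated, a difference of 0.17 (SE 0.051, 1.13-fold, adjusted p = 0.0145). Within number ranges it was 0.21 (high) and 0.13 (low) and, as a description, passed in neither. Mpo averaged 7.22 ± 0.06 with GFP-mCherry and 7.21 ± 0.08 untreated (SD, n = 6 each), a difference of 0.02 with a 95% interval of -1.12 to 1.16 that takes its width from the spread of the natural arrays, since all groups share 1 estimate. Itgam (-0.11), Itgb2 (-0.36), Elane (0.06), Ctsg (-0.20), Csf3r (-0.11), Csf1r (-0.14) and Fcgr1 (-0.18) did not pass, with adjusted p from 0.176 to 0.889. The direction of Itgam, Itgb2 and Fcgr1 was not the same in both number ranges, with differences of 0.38, 0.45 and 0.15 among high-numbered arrays and of -0.60, -1.17 and -0.50 among low-numbered ones.

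Of the other myeloid genes, 6 of 27 granule and secreted genes rose after GFP-mCherry, with Hp (1.14, adjusted p = 1.59e-12), Ncf1 (1.05, adjusted p = 2.89e-08) and Ms4a3 (0.19, adjusted p = 0.00194) ahead, and 0 fell. Of 34 surface and signalling genes 0 rose and 5 fell, among them Csf2ra (-0.44, adjusted p = 0.00031) and Ccr2 (-0.54, adjusted p = 0.000657). Of 17 transcription factor genes 3 rose, against 14.7% of all probe sets, and Runx1 fell. Those that rose were of the C/EBP family, Cebpa (0.76, adjusted p = 2.98e-08), Cebpb (0.48, adjusted p = 4.2e-05) and Cebpd (0.40, adjusted p = 0.000422). Cebpe, of the same family, did not pass. The median difference of the members was -0.11 and that of all probe sets -0.04. Of the other lists, 1 B lineage and 2 erythroid and megakaryocyte genes rose, 2 B lineage, 2 T and NK cell, 2 mast cell, 3 erythroid and megakaryocyte and 2 dendritic cell genes fell, and 0 eosinophil genes passed.

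mCherry-Fc, which has the mCherry nanobody chain to bind, was also set against no protein. It shares its untreated arrays with the GFP-mCherry comparison. Prtn3 rose and Csf3r fell, 2 of 10 members against 26.9% of all probe sets, 14.2% higher and 12.8% lower, and 0 members were free of overlap, against 11.4%. Prtn3 lay between 10.66 and 10.91 (median 10.79) with mCherry-Fc, against 10.50 to 10.69 (median 10.61) untreated, a difference of 0.21 (SE 0.051, 1.15-fold, adjusted p = 0.0043). It was 0.34 among high-numbered arrays and 0.08 among low-numbered ones, where, as a description, it did not pass. The ranges separated the mCherry-Fc arrays of Prtn3 with no overlap, so no p is given within them.

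Csf3r lay between 5.01 and 5.16 (median 5.08) with mCherry-Fc, against 5.01 to 5.47 (median 5.38) untreated, a difference of -0.22 (SE 0.081, adjusted p = 0.0465). The call was lost with the replicate number as a block (-0.14, adjusted p = 0.205), which leaves out mCherry-Fc arrays 8, 10 and 15. Repeated quantile normalization, median centring, adjustment over all probe sets and array weights each lost it as well. It was also lost when untreated array 7, 9, 11 or 12 was left out (-0.19, -0.20, -0.21 and -0.18, adjusted p = 0.108, 0.0953, 0.086 and 0.103) or mCherry-Fc array 8, 9, 13, 14 or 15 (-0.23, -0.22, -0.21, -0.20 and -0.21, adjusted p = 0.0536, 0.0571, 0.0847, 0.0913 and 0.0828). Its probe set had a mean below 6 over all arrays.

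The other 8 members did not pass. Spi1 lay between 11.13 and 11.32 (median 11.23) with mCherry-Fc, a difference of 0.10 from untreated cells (adjusted p = 0.21), Fcgr1 differed by -0.02 (95% interval -0.26 to 0.21), Elane by 0.04, Csf1r by -0.14, Itgam by -0.18, Itgb2 by 0.02 and Mpo by 0.07. Ctsg differed by -0.27 (adjusted p = 0.115) and passed without mCherry-Fc array 9 (-0.35, adjusted p = 0.0407). Of the other myeloid genes, 5 of 27 granule and secreted genes rose, with Ms4a3 (0.23, adjusted p = 0.0004) and Ctsc (0.29, adjusted p = 0.00253) ahead, and Camp fell. Of 34 surface and signalling genes Cxcr2 rose and 5 fell, with Sirpa (-0.31, adjusted p = 0.00868) ahead. Of 17 transcription factor genes 3 rose, Cebpa (0.66, adjusted p = 6.03e-07), Cebpd (0.43, adjusted p = 0.000271) and Cebpb (0.30, adjusted p = 0.00654), and 3 fell. The median difference of the members was -0.0029 and that of all probe sets -0.03. Of the other lists, 2 B lineage, 5 T and NK cell, 4 mast cell, 2 erythroid and megakaryocyte and 2 dendritic cell genes fell, 2 erythroid and megakaryocyte genes rose, and 0 eosinophil genes passed.

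GFP-mCherry against mCherry-Fc asks whether the 2 proteins act differently on the same cells. By limma's test 0 of 10 members passed, against 1.13% of all probe sets, and 1, Spi1, had an unadjusted p under 0.05. Spi1 was higher with GFP-mCherry by 0.18 (SE 0.057, 95% interval 0.07 to 0.30, adjusted p = 0.161), and its groups, 11.37 to 11.47 against 11.13 to 11.32, did not overlap, which held for 2.98% of all probe sets. Prtn3 differed by -0.04 (95% interval -0.14 to 0.07), Fcgr1 by -0.15 (-0.39 to 0.08) and Elane by 0.02 (-0.12 to 0.16). The intervals of Itgam (-0.96 to 1.08), Itgb2 (-1.28 to 0.52) and Mpo (-1.19 to 1.09) are wider. The estimate behind them is shared by all groups and includes the spread of the natural arrays. In GFP-mCherry and mCherry-Fc cells the SD was 0.32 and 0.56 for Itgam, 0.65 and 0.78 for Itgb2, and 0.06 and 0.10 for Mpo. Among low-numbered arrays Itgam and Itgb2 were lower with GFP-mCherry, by 0.56 and 1.23 on the log2 scale. Of the granule and secreted list Hp (0.95, adjusted p = 1.42e-10) and Ncf1 (0.92, adjusted p = 1.27e-06) were higher with GFP-mCherry, as was the mast cell gene Hdc, and 0 genes of the other 7 lists passed.

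The responses of the lines were compared directly, as the difference between a synthetic and the natural response. For GFP-mCherry minus IL-22 it passed for 1 of 10 members, against 13.7% of all probe sets. This was Fcgr1, with -0.61 (SE 0.18, adjusted p = 0.0221), made up of -0.18 after GFP-mCherry and 0.44 after IL-22. It did not pass without IL-22 array 1 or 2 (both -0.55, adjusted p = 0.0631 and 0.0578) or untreated natural array 2 (-0.55, adjusted p = 0.0573), nor with the replicate number as a fixed block (-0.55, adjusted p = 0.0919), with which Csf3r passed instead (-0.36, adjusted p = 0.0201). The Fcgr1 difference was -0.11 among high-numbered arrays and -1.07 among low-numbered ones. Prtn3, which rose after each ligand, did so by amounts whose difference was -0.12 for GFP-mCherry (95% interval -0.28 to 0.05) and -0.08 for mCherry-Fc (-0.25 to 0.09). The Spi1 difference was 0.18 for GFP-mCherry (-0.01 to 0.36, adjusted p = 0.214).

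For mCherry-Fc minus IL-22 the difference of responses passed for 0 of 10 members by limma's test, against 13.3% of all probe sets. At an unadjusted p under 0.05 there were 2, Csf3r (-0.34, adjusted p = 0.0772) and Fcgr1 (-0.46, adjusted p = 0.0929). Csf3r passed with the replicate number as a fixed block (-0.38, adjusted p = 0.0314) or a random one (-0.35, adjusted p = 0.0306) and with the number range as a term (-0.39, adjusted p = 0.0158). It also passed without untreated natural array 4 (-0.42, adjusted p = 0.0236) and without untreated synthetic array 13 (-0.37, adjusted p = 0.0479) or 14 (-0.40, adjusted p = 0.0255), and Fcgr1 without IL-22 array 3 (-0.57, adjusted p = 0.0419). The Mpo difference, which rests on the natural arrays' number ranges, passed for both ligands without IL-22 array 5, at 2.01 for GFP-mCherry and 2.07 for mCherry-Fc (adjusted p = 0.0439 and 0.0397).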

How the data were processed

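RNA of Ba/F3/gp130 cells (150 ng an array, integrity number above 8, per the labels' protocols) was read on 26 Affymetrix arrays. The authors deposited 1 log2 intensity for each probe set and array, from Affymetrix Expression Console 4.0, per the submitters' processing notes, in its core analysis of genes or exons, per the labels. The algorithm, background correction and filters are not given in the sources used here. The values ran from 1.79 to 14.31. The number of arrays limits the precision.

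Of 35556 probe sets, the 21789 paired with 1 symbol in the platform annotation were tested (1621 had several symbols and 12146 had none). Symbols were updated by Entrez identifier for 21698 of them, and 91 were kept. Groups and replicate numbers came from the titles. All 26 arrays entered 1 linear model with a mean for each of 5 groups (limma 3.58.1 in R 4.3.3, lmFit and eBayes, two-sided), with Benjamini-Hochberg adjustment over the 21789 probe sets and a threshold of 0.05. In the text, rose and fell mean past this threshold. The model was tested on simulated data.

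The 10 members, the 9 gene lists (184 genes, 166 measured) and the split of replicate numbers into low (natural 1 to 3, synthetic 7 to 11) and high (natural 4 and 5, synthetic 12 to 15) were chosen with earlier results of these data known. The text names every member, at least 1 of the 3 called genes of smallest p in each myeloid list, genes spelling out counts of 5 or fewer, the 5 genes whose deviations from group means correlated best with Mpo and with Itgam, and the receptor chains. Genes of the lists named by number range were chosen after their values were seen.

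Same-numbered arrays correlated over 0.1 in every pair for IL-22 against untreated (r from 0.300 to 0.601), mCherry-Fc against untreated (0.258 to 0.464) and GFP-mCherry against mCherry-Fc (0.102 to 0.266). By that rule the number is used there as a pairing, and the blocked value stands beside a result where it changes the call. These values do not show a pairing, since differently numbered arrays correlated more highly in some cases. Such cases were number 3 for IL-22 (0.347 against 0.300) and number 9 for mCherry-Fc (0.363 against 0.258) and between the proteins (0.310 against 0.215). Number 14 was another in both of the latter, and the remaining numbers were not. Promoters came from RefSeq (GRCm38.p6). The alternatives tried are given at the end with their effect.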

Additional observations from a re-analysis of the deposited data

Results flagged for a closer look

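On the IL-22 array numbered 5, 3 members stood far from the other IL-22 arrays, by Dixon's test for a single outlying value. Mpo was at 10.87, against 6.97 to 7.05 on the rest, Itgam at 12.05, against 8.73 to 8.98, and Itgb2 at 10.22, against 7.94 to 8.02. It is the 1 high-numbered array of its group, and the untreated arrays numbered 4 and 5 had similar values. In untreated synthetic cells Mpo was at 7.36 on array 13, against 7.15 to 7.20 on the rest. Chance alone sets about 1 in 20 groups apart in this way, and 50 groups were read. The response of Fcgr1, the high-affinity IgG receptor gene, differed between the lines by -0.61 (GFP-mCherry minus IL-22), by the model's own test of that difference.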

How the results depend on the processing

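Of the members' counts, these differed by over 1.5 times from those reported. For IL-22, 2 became 1 (Prtn3) with p-values adjusted over all probe sets, array weights, a fit on the groups compared, or a fixed replicate block, and 0 with a 1.5-fold minimum or within high numbers, where the 1 IL-22 array is assumed to vary like the others. For GFP-mCherry, 2 became 1 (Spi1) with repeated quantile normalization or within high numbers and 0 with the 1.5-fold minimum. Within low numbers 4 were called, Itgam, Itgb2, Fcgr1 and Csf1r, all lower, while Spi1 and Prtn3 were lost. For mCherry-Fc, 2 became 1 (Prtn3) with repeated quantile normalization, adjustment over all probe sets, a mean of at least 6, array weights or the fixed block, 1 (Csf3r) within low numbers and 0 with the 1.5-fold minimum. GFP-mCherry against mCherry-Fc had 0, but 1 (Spi1) with array weights or its own groups and 2 within low numbers (Itgam and Itgb2, both lower). The untreated lines had 5, but 3 with the 1.5-fold minimum and 8 within high numbers (Mpo, Ctsg and Csf1r added). Within low numbers the count stayed at 5, but Itgb2 was lost and Csf3r, higher in synthetic cells, was added. The GFP-mCherry minus IL-22 response had 1, but 2 with median centring (Spi1 added) and 5 within low numbers (Csf3r, Itgam, Itgb2 and Mpo added). The mCherry-Fc minus IL-22 response had 0, but 1 (Csf3r) with a fixed or random replicate block or the number range as a term. It had 2 within low numbers (Csf3r and Elane). Smaller changes were 3 for IL-22 (Elane added) with quantile normalization, median centring, a mean of at least 5 or 6 or the random block, 3 for GFP-mCherry with the range as a term (Csf1r) or its own groups (Ctsg), 3 for mCherry-Fc with the range as a term (Ctsg) or within high numbers (Ctsg and Spi1 added, Csf3r lost), and between lines 6 (Mpo added) with quantile normalization, 1 probe set or the mean of probe sets per gene or a mean of at least 6, and 7 (Ctsg too) with a mean of at least 5. Leaving out 1 array gave 1 to 4 for IL-22, 2 to 2 for GFP-mCherry, 1 to 2 for mCherry-Fc, 0 to 0 between these proteins, 5 to 7 between lines, 0 to 2 and 0 to 1 for the differences of responses. Among low numbers Itgam reversed to -0.56 (GFP-mCherry against mCherry-Fc) and, for the GFP-mCherry minus IL-22 response, Itgam to -0.65 and Itgb2 to -0.92. The cause was not tested. Counts within number ranges are a description, since the split was seen in these data. For GFP-mCherry against untreated, same-numbered arrays correlated at -0.139 to 0.414, so the samples share only a number there, and the fixed replicate block left 2 members called. In the comparisons handled as paired the fixed block changed the calls of Fcgr1 (IL-22) and Csf3r (mCherry-Fc) given above. For the mCherry-Fc minus IL-22 response it changed that of Csf3r, and it changed no other member's. No paired analysis was possible between the untreated lines because they share no number.

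Over all probe sets, median centring moved the share of calls that were higher from 55.6% to 88.8% (GFP-mCherry), 52.6% to 89% (mCherry-Fc), 67.3% to 83% and 65% to 82.2% (differences of responses), and moved the median difference by over 0.1, to 0.06 and 0.07, for the first pair, with no called member changing sign. For mCherry-Fc, however, it dropped the call of Csf3r and added that of Spi1, so that the count of members stayed the same. Counts of called probe sets left the 1.5-fold band as follows. IL-22 had 2469, and 1329 on its own groups, 823 within high numbers and 699 with the 1.5-fold minimum. GFP-mCherry had 5755, and 263 with that minimum. mCherry-Fc had 5871, and 3631 with repeated quantile normalization and 156 with the minimum. GFP-mCherry against mCherry-Fc had 247, and 70 to 554. The lines had 3235, and 1839 on their own groups, 507 with the minimum and 6286 within high numbers. The differences of responses had 2987 and 2888, and 770 to 4960 and 697 to 4608. Array number, 1 to 3 a group within ranges, limits all of these.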

Other observations

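Some marker genes of the lists for other blood cells stood apart on the high-numbered natural arrays, while other genes of the same lists did not. Cd74, the invariant chain of MHC class II, lay between 10.16 and 10.42 there and between 6.81 and 7.31 on low-numbered natural arrays (8.95-fold). The class II genes H2-Aa and H2-Ab1 and their activator gene Ciita were 0.968, 1.05 and 1.07 times as high and overlapped. Epx, the peroxidase of eosinophil granules, was 19.5 times as high, while Prg2, the eosinophil major basic protein gene, was 1.28 times as high. The eosinophil genes Il5ra, Siglecf and Ccr3 were 0.940, 0.964 and 0.965 times as high and overlapped. Hdc, which encodes the enzyme that makes histamine, was 1.51 times as high, Hpgds, the haematopoietic prostaglandin D synthase gene, 1.35 times, and Cd72, a B cell surface protein gene, 1.75 times. Gzmb, which encodes granzyme B, ran the other way, at 12.25 to 12.52 on high-numbered and 12.57 to 13.36 on low-numbered natural arrays. Pax5, Ebf1 and Rag1, genes of early B lineage identity, overlapped between the ranges. These values were picked after they were seen and carry no test.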
